A study of Mus musculus with 23 samples.

Results

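The genes described here build the tight junctions that seal the barriers of the brain. They are 9 genes taken by symbol from the features of the deposited matrix, out of 32285 genes in all, and every symbol was found. Their UMIs (molecules counted once by a molecular barcode) were summed per cell class, treatment and sorting bin. The study dosed mice intravenously with 45 mg/kg of an antibody carrying the dye AF647 and took the brain 24 hours later. ATV-TfR, an antibody transport vehicle that binds the transferrin receptor, was given to TfR mu/hu knock-in mice, and ATV-CD98hc, which binds CD98hc, to CD98hc mu/hu knock-in mice. Control IgG was given to C57BL/6 mice (C57BL/6J in the design text) without a knock-in, so treatment and genotype coincide in every comparison between treatments and cannot be told apart. The mice were 3.3 months old by the sample labels and 12 weeks by the series' design text, which are not the same age. All were perfused, and all brains were dissociated with the same inhibitors of transcription and translation after removal of olfactory bulb, cerebellum, pons and medulla. Each treatment had 2 pools of 1 male and 1 female mouse. The cells of each pool were sorted into negative, low, medium and high bins of AF647 signal, with gates set on ATV-TfR and used for all. This gave 23 libraries, since control IgG had 1 library in the negative bin, from pool 2.

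In a tight junction the claudins form the strands that close the space between neighbouring cells, and occludin and its relative tricellulin run along these strands. Tricellulin and the angulins sit where 3 cells meet, the junctional adhesion molecules bind across the cleft nearby, and cytoplasmic scaffolds tie all of them to actin. Brain capillaries are the best known case of such sealing, through claudin-5, while in the choroid plexus the vessels are leaky and the epithelium is sealed instead. Cldn5 (claudin-5) and Ocln (occludin) stand here for the strand, and Marveld2 (tricellulin) and Lsr (angulin-1) for the contacts of 3 cells. F11r (JAM-A), Jam2 (JAM-B) and Esam, an adhesion molecule of endothelial cells and platelets, are the immunoglobulin-type members. Tjp1 (ZO-1) and Cgn (cingulin) are the scaffolds.

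In GRCm38 coordinates Cldn5 lies on chr16:18776847-18778262, Jam2 on chr16:84774123-84825928, Lsr on chr7:30957770-30973464 and Tjp1 on chr7:65296165-65527781. Ocln on chr13:100496507-100552718 and Marveld2 on chr13:100595957-100616971 are neighbours on the same strand, 43238 bases apart with 2 genes between them. Cgn lies on chr3:94760069-94786492, F11r on chr1:171437535-171464603 and Esam on chr9:37528078-37538319. Lsr overlaps 2 genes of the matrix on the opposite strand, Gm17077 and Gm4673, which held 354 and 2464 UMIs in endothelial-like cells against 135756 for Lsr. The other 8 members overlap no gene of the matrix. Promoter sequence was available in RefSeq (GRCm38.p6) for 7 of the 9 members, and 5 are shown. Cldn5, Ocln and Lsr are shown because they were called higher in the high bin of ATV-TfR and were low in fenestrated-like cells, Cgn and F11r because their highest level lay outside the endothelium. Each is the stretch of at most 250 bases just before the annotated gene, 5′ to 3′ on the gene's strand. Capitals mark matches on either strand to the GC box (GGGCGG), the CCAAT box (CCAAT), and the cores bound by ETS factors (CCGGAA), by E-box factors (CAGGTG) and by GRHL factors (AACNNGTT). No match overlaps another in these windows.
Cldn5, chr16:18776597-18776846, plus strand: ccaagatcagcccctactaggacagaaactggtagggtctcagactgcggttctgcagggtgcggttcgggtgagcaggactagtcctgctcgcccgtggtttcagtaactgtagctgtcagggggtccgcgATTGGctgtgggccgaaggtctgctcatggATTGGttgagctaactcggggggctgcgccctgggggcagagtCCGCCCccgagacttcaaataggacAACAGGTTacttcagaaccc
Ocln, chr13:100552719-100552968, minus strand: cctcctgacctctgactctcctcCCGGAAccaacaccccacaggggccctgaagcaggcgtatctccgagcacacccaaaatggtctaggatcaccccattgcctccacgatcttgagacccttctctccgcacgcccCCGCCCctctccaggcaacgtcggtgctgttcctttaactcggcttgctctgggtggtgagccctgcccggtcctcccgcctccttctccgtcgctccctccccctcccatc
Lsr, chr7:30973470-30973719, minus strand: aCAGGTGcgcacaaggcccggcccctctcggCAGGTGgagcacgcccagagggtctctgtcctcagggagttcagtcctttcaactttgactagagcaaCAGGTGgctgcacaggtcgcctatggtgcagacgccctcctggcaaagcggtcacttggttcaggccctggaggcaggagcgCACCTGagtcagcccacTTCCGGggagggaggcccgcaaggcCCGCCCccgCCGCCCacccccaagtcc
Cgn, chr3:94786493-94786732, minus strand: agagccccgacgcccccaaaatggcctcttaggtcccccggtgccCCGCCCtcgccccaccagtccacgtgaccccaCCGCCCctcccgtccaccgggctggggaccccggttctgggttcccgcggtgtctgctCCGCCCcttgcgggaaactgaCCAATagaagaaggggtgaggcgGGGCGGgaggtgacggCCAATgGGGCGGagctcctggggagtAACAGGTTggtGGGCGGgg
F11r, chr1:171437311-171437534, plus strand: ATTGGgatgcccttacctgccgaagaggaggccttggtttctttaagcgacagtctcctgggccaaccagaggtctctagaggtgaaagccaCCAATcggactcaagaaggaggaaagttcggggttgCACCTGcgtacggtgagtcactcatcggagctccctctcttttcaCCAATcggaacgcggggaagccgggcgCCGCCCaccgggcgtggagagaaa
Of the 6 motifs searched, the GC box is present in all 5 windows, with 1 match each in Cldn5, Ocln and F11r, 2 in Lsr and 6 in Cgn. It occurs in 32.7% of the 32851 RefSeq promoters. The GRHL core, present in 3.64% of promoters, has 1 match in Cldn5 and 1 in Cgn. The CAGGTG E-box, present in 17.2%, has 4 matches in Lsr and 1 in F11r. CCAAT boxes (33.8% of promoters) occur 2 times in Cldn5, 2 times in Cgn and 3 times in F11r, and the ETS core (12% of promoters) has 1 match each in Ocln and Lsr. The sixth motif, the SOX core ACAAAG (16.5% of promoters), has no match in any of the 5. These are letter matches, and no binding was measured.

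After filtering and removal of doublets 234024 cells were left, 519 to 19341 per library, with a median of 2178 to 4873 UMIs per cell. Library totals ran from 1861238 to 90307818 UMIs. The members and the other junction genes were kept out of the genes used for clustering. Markers named 16 classes, each written with the ending -like, of which endothelial-like cells were the largest with 97825 cells. These carried 23780 CPM of 12 endothelial markers together. Choroid plexus epithelial-like cells numbered 4447 and ependymal-like cells 568. The share of barcodes seen in more than 1 library was 6.141%. The library ATV-CD98hc negative replicate 1 was rich in hemoglobin RNA, with 21030 CPM (UMIs of a gene scaled to the same total for every sum of cells) of erythroid markers in its endothelial-like cells. All levels below are CPM of a class in a pool or library, and levels are compared only within a gene, since no gene lengths enter this scale. No source states that pools are independent experiments, so p-values measure the spread between these pools or libraries.

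Of the 9 members, 7 had their highest mean level in endothelial-like cells, F11r had it in microglia-like cells and Cgn in choroid plexus epithelial-like cells. These levels are a description, because the classes were cut from the same cells. Cldn5 stood at 6930 and 8556 CPM in endothelial-like cells of the ATV-CD98hc pools, 7635 and 7681 in ATV-TfR, and 9473 and 7830 in control IgG. The mean was 8018 ± 882 CPM (SD, n = 6), 2.34 times that of pericyte-like cells, the next class, at 3422 ± 1202 CPM (SD, n = 6). No endothelial-like pool overlapped a pericyte-like pool. Of the endothelial-like cells 99.5% held a Cldn5 UMI at a median depth of 3351 UMIs, against 3.61% of astrocyte-like cells, which should lack the gene, at a median of 3988. After each cell was thinned to 1000 UMIs the shares were 99.1% and 1.3% (766 and 556 shallower cells left out).

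Ocln followed the same order, with 384 and 358 CPM in the ATV-CD98hc pools, 352 and 370 in ATV-TfR, and 356 and 375 in control IgG. The 6 pools stood at 366 ± 12.3 CPM (SD, n = 6). Pericyte-like cells had 154 ± 31 CPM (SD, n = 6), with no overlap of pools. Ependymal-like cells followed with 95 ± 20.7 CPM (SD, n = 5), and their pools overlapped none of the endothelial-like ones. An Ocln UMI was found in 69.5% of endothelial-like, 41.9% of ependymal-like and 26.0% of choroid plexus epithelial-like cells, and in 1.75% of astrocyte-like cells. At 1000 UMIs per cell the endothelial-like share was 30.4% and the ependymal-like share 8.85%, since ependymal-like cells were deeper, with a median of 6546 UMIs. Marveld2 UMIs were few, at 11.9 ± 1.9 CPM (SD, n = 6) in endothelial-like cells, where 4.63% of cells held a UMI, and 9.82 ± 1.62 CPM (SD, n = 6) in microglia-like cells. Pools of these classes overlapped, so the order of Marveld2 levels is not resolved.

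Lsr had 318 and 372 CPM in endothelial-like cells of the ATV-CD98hc pools, 375 and 369 in ATV-TfR, and 399 and 312 in control IgG, a mean of 358 ± 34.8 CPM (SD, n = 6). That was 2.33 times the pericyte-like level of 154 ± 50 CPM (SD, n = 6), without overlap. Jam2 had 415 ± 20.6 CPM (SD, n = 6) in endothelial-like cells. It stood at 191 ± 80.9 CPM (SD, n = 6) in pericyte-like cells and 160 ± 12.7 CPM (SD, n = 5) in astrocyte-like cells. A Jam2 UMI was found in 73.0% of endothelial-like and 45.0% of astrocyte-like cells. Esam had 872 ± 105 CPM (SD, n = 6) in endothelial-like cells, 597 ± 117 CPM (SD, n = 6) in pericyte-like cells and 300 ± 49 CPM (SD, n = 5) in smooth muscle-like cells. The first and second of these overlapped, smooth muscle-like pools stood below both.

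F11r departed from this order. Microglia-like cells had 502 and 538 CPM in the ATV-CD98hc pools, 550 and 640 in ATV-TfR, and 408 and 536 in control IgG, a mean of 529 ± 75 CPM (SD, n = 6). Endothelial-like cells had 195 ± 17.5 CPM (SD, n = 6), a factor of 2.72 lower with no overlap, and border macrophage-like cells 178 ± 27 CPM (SD, n = 6), which overlapped the endothelial-like pools. F11r UMIs were found in 71.1% of microglia-like cells, 49.9% of endothelial-like cells and 1.03% of astrocyte-like cells. F11r is known to be made by leukocytes and platelets as well as by endothelium.

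Among the scaffolds, Tjp1 was broad and Cgn narrow. Tjp1 had 1307 and 851 CPM in endothelial-like cells of the ATV-CD98hc pools, 929 and 867 in ATV-TfR, and 1132 and 1373 in control IgG, with a mean of 1076 ± 228 CPM (SD, n = 6). The pericyte-like pools at 807 ± 141 CPM (SD, n = 6) overlapped them. Astrocyte-like cells had 455 ± 18.8 CPM (SD, n = 5) and oligodendrocyte-like cells 280 ± 26 CPM (SD, n = 5), and 75.0% of astrocyte-like cells held a Tjp1 UMI. Cgn had 19.0 and 22.9 CPM in choroid plexus epithelial-like cells of the ATV-CD98hc pools, 18.1 and 15.5 in ATV-TfR, and 25.4 and 28.0 in control IgG. Its mean of 21.5 ± 4.75 CPM (SD, n = 6) was 2.99 times that of neuron-like cells at 7.20 ± 3.8 CPM (SD, n = 4), with no overlap of pools. In endothelial-like cells Cgn had 34 UMIs in all, a mean level of 0.115 CPM. A Cgn UMI was found in 16.1% of choroid plexus epithelial-like cells (median 7980 UMIs) and in 0.0348% of endothelial-like cells.

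**Figure D1:**
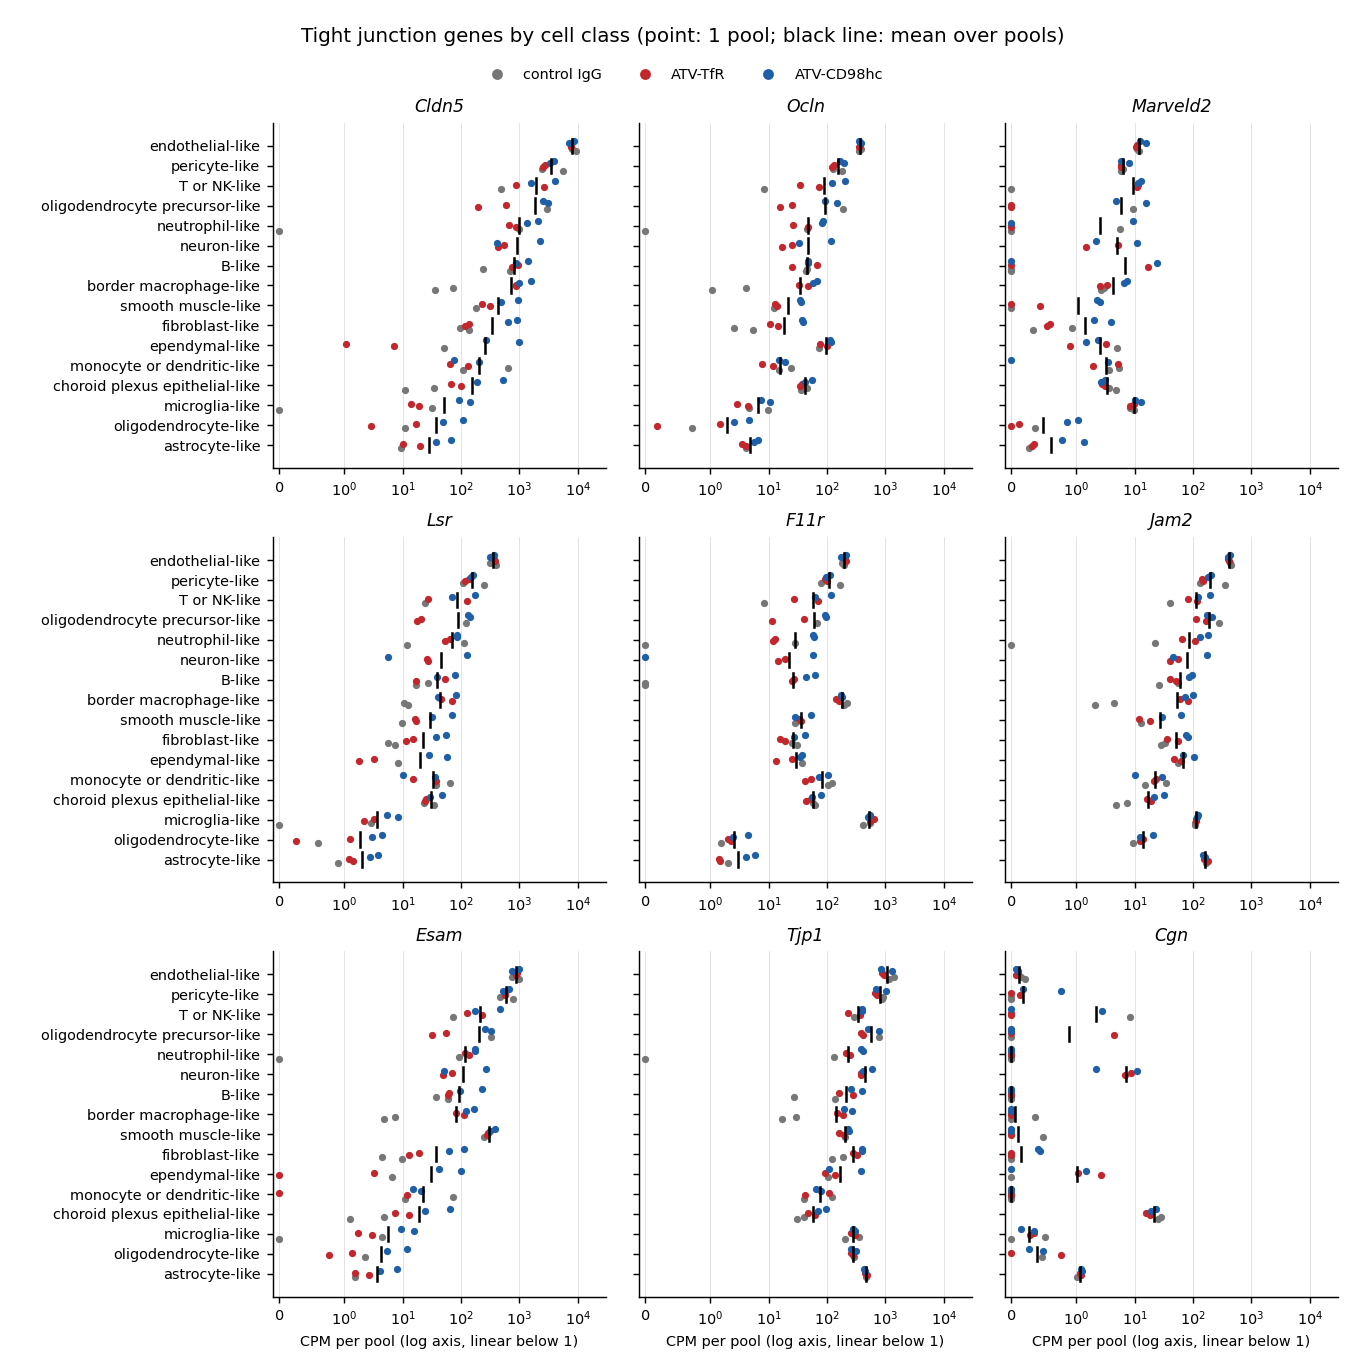
Level of each member in 16 cell classes, as CPM per pool on a log axis that is linear below 1. Points are pools coloured by treatment and black lines are means; 7 members are highest in endothelial-like cells, F11r in microglia-like cells (529 CPM) and Cgn in choroid plexus epithelial-like cells (21.5 CPM).

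Droplets also take up free RNA, so each member was set against the summed UMIs of 12 endothelial markers in the same cells. Pericyte-like cells carried 43.7% of the endothelial-like marker level, and astrocyte-like cells 0.385%. Per endothelial marker UMI, Cldn5 was at 0.650 to 1.008 times its endothelial-like ratio in the other 15 classes. Summed over pools, its level outside the endothelium thus ran in step with those markers. Single pools differed more. Choroid plexus epithelial-like cells had Cldn5 at 10.9 beside markers at 162 CPM in control IgG pool 1, and 522 beside 1539 CPM in ATV-CD98hc pool 2. Ocln exceeded its endothelial ratio 6.75 times in ependymal-like and 4.74 times in choroid plexus epithelial-like cells. Tjp1 exceeded its ratio 124 times in astrocyte-like and 74.6 times in oligodendrocyte-like cells, and Jam2 110 times in astrocyte-like cells. In pericyte-like cells Ocln was at 0.997, Jam2 at 0.996 and Lsr at 0.961 times the endothelial-like ratio. Tjp1 was at 1.87, F11r at 1.24 and Marveld2 at 1.245 times it there. F11r exceeded its ratio 223 times in microglia-like, 13.1 times in border macrophage-like and 12.4 times in choroid plexus epithelial-like cells. Esam exceeded its ratio 6.47 times in smooth muscle-like and 1.64 times in pericyte-like cells. Lsr exceeded it 3.56 times in choroid plexus epithelial-like cells, and Marveld2 63.4 times in microglia-like, 12.7 times in astrocyte-like and 10.8 times in choroid plexus epithelial-like cells. The Marveld2 factors rest on few UMIs. A Marveld2 UMI was found in 2.84% of microglia-like, 0.234% of astrocyte-like and 2.83% of choroid plexus epithelial-like cells.

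Most endothelial-like cells held several members at once. UMIs of 6 of the 9 members were found in 30.88% of the cells, of 5 in 25.79% and of 7 in 20.86%. All 9 were found in 1 cell and none in 43 cells. Over the 16 classes the log2 levels of Cldn5 and Lsr had a Pearson r of 0.97, Cldn5 and Esam 0.96, Ocln and Lsr 0.93, Tjp1 and Jam2 0.81, and Marveld2 and F11r 0.78, while Cgn lay between -0.26 and 0.08 with the other 8. Among 10076 genes with at least 50 CPM in some class, the profile nearest to Cldn5 was that of Egfl7 (r = 0.998), followed by Abcb1a and Cyyr1. The nearest to Ocln was Paqr5 (0.982), to Lsr Slco1a4 (0.980), to Esam Car4 (0.985), to Jam2 Ptprm (0.951) and to Tjp1 Gsk3b (0.936). F11r lay nearest to Itpripl1 (0.910), Marveld2 to Mfng (0.896) and Cgn to Htr2c (0.961), a serotonin receptor of the choroid plexus. These are descriptions over 16 classes that share libraries and free RNA.

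Within the endothelium the fenestrated-like cells stood apart from the other segments. Clusters named by vessel markers gave 59881 capillary-like, 9893 arterial-like and 2471 venous-like cells, and 360 fenestrated-like cells of the leaky type, of which 353 lay in the 5 pools with enough cells. Another 25220 endothelial-like cells were in clusters left without a segment name. Among these, clusters of 7112 and 6775 cells matched the capillary list but were left out because astrocyte and pericyte markers led them. The fenestrated-like cells carried Plvap, the diaphragm protein of fenestrae, at 2826 CPM against 0.106 in capillary-like cells, and Esm1 at 687 against 0.0382 CPM. In them Cldn5 stood at 783 and 1247 CPM in the ATV-CD98hc pools, 40.9 and 267 in ATV-TfR, and 956 in control IgG pool 2. The lowest capillary-like pool had 6937 CPM. The mean was 659 ± 496 CPM (SD, n = 5) against 8213 ± 973 CPM (SD, n = 6) in capillary-like cells, a ratio of 0.0835 over the same 5 pools.

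Ocln in fenestrated-like cells had 36.2, 77.5, 7.44, 4.85 and 45.5 CPM in the same order of pools, against 387 ± 10.9 CPM (SD, n = 6) in capillary-like cells. Its ratio to the capillary-like level was 0.0883, and that of Lsr 0.104. Tjp1, at 452, 370, 339, 247 and 368 CPM, was at 0.314 of the capillary-like level. Every one of these pools lay below all capillary-like pools. Marveld2 had 3 UMIs in all fenestrated-like cells, which is at the floor of detection. The adhesion molecules differed from these. Jam2, at 237, 228, 227, 218 and 232 CPM, was at 0.529 of the capillary-like level and lower in all 5 pools. Esam at 780 ± 110 CPM (SD, n = 5) was at 0.887, lower in all 5 pools but with pool ratios up to 0.996. F11r, at 204, 243, 238, 213 and 211 CPM, was at 1.19 times the capillary-like level and higher in all 5 pools.

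The amount of Cldn5 in fenestrated-like cells moved with the library. In ATV-TfR negative replicate 2, with 28 such cells and 92780 UMIs, Cldn5 had 1 UMI (10.8 CPM) and no Ocln UMI was found, which allows up to 32.3 CPM. In ATV-TfR negative replicate 1, with 47 cells, Cldn5 was at 28.8 CPM and Ocln at 5.77 CPM, or 1 UMI, while the 12 general endothelial markers summed to 16040 CPM. The ATV-CD98hc medium library of pool 2 and the control IgG low library of pool 2 had 2562 and 1089 CPM of Cldn5. The part of free RNA in these values was not tested. The high and medium bins alone held 58 fenestrated-like cells, and only the ATV-CD98hc pools had enough of them to be compared. In these pools Cldn5, Ocln, Lsr and Tjp1 still lay under 50% of the capillary-like level, and the ratio for Cldn5 was 0.283. Marveld2 and Cgn had too few UMIs for this comparison.

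Arterial-like and venous-like cells differed from capillary-like cells by far less. In arterial-like cells Cldn5 was at 0.831, Ocln at 0.794, Tjp1 at 0.870, Esam at 0.753 and Jam2 at 0.824 of the capillary-like level, each lower in 6 of 6 pools, and F11r at 1.11, higher in 5 of 6. Lsr stood at 0.998 and Marveld2 at 1.14, each higher in 4 of 6 pools. In venous-like cells Ocln (0.860) and Jam2 (0.928) were lower in 6 of 6 pools. F11r (1.14), Lsr (1.09) and Esam (1.09) were higher in 6 of 6, while Cldn5 stood at 1.04 and Tjp1 at 1.05, with pools on both sides. Ocln and Jam2 thus had their highest level in capillary-like cells in every pool. The edges of these clusters were not firm. With 2 other random seeds and 2 other resolutions of the clustering, arterial-like cells numbered 4621 to 24242, venous-like cells 623 to 3000 and fenestrated-like cells 356 to 360. Ocln stayed lower in arterial-like and venous-like cells in 6 of 6 pools in each of these clusterings, at 0.710 to 0.855 and 0.763 to 0.877 of the capillary-like level. Jam2 in venous-like cells was lower in 5 of 6 pools in each of the other clusterings, and Cldn5 there ranged from 0.814 to 1.07. In fenestrated-like cells the ratio of Cldn5 lay between 0.0807 and 0.0839 in all of them, and that of Ocln between 0.0878 and 0.0893.

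**Figure D2:**
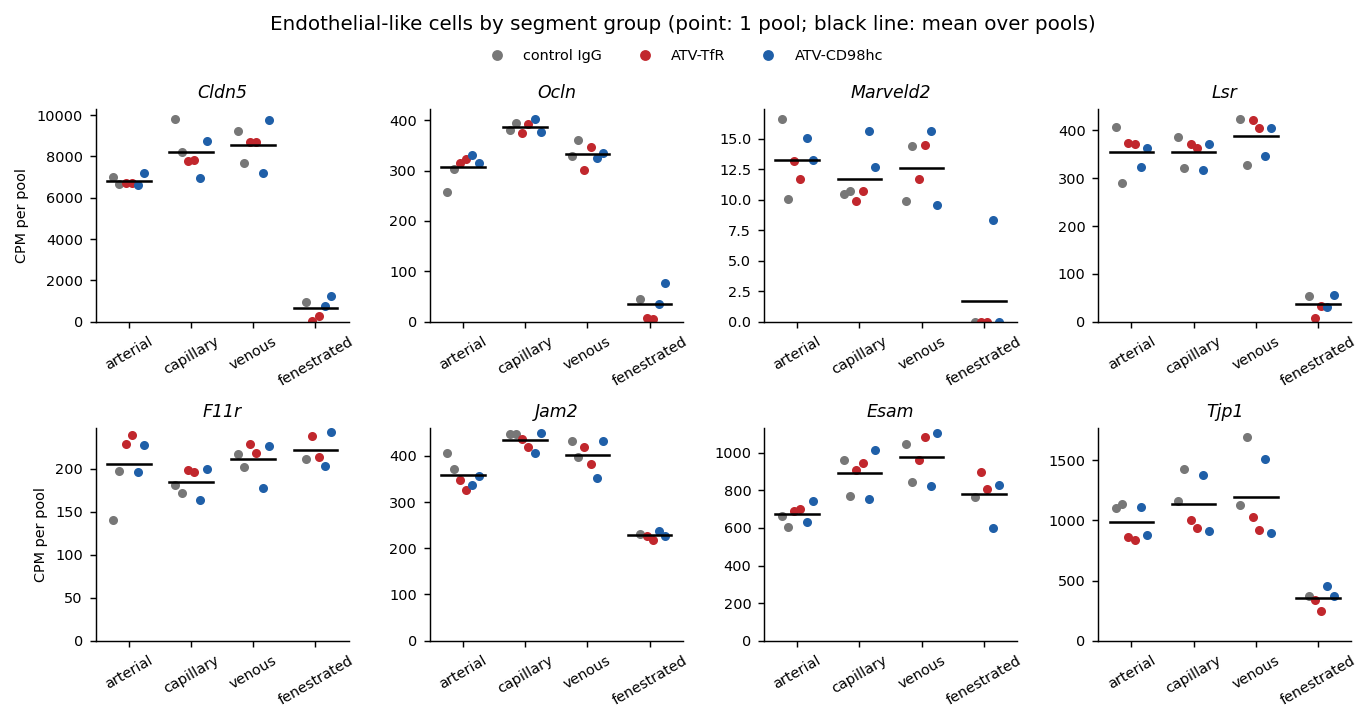
CPM per pool of 8 members in arterial-, capillary-, venous- and fenestrated-like endothelial cells. Points are pools coloured by treatment and black lines are means; in fenestrated-like cells Cldn5, Ocln, Lsr and Tjp1 drop to between 0.0835 and 0.314 of the capillary-like level, while F11r stands at 1.19.

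The next comparison asked whether endothelial-like cells that carried more antibody differed in their junction genes. Levels were summed per library and tested with edgeR over all 15744 genes that passed its filter on low counts. Cgn did not pass, which leaves 8 members. In ATV-TfR, 4 of these 8 were higher in the high bin than in the negative bin, against 3.28% of all genes higher and 10.1% called in either direction at an adjusted p below 0.05. Ocln had 154 and 211 CPM in the negative bin, 224 and 200 in the low, 303 and 311 in the medium and 362 and 379 in the high bin. The high and medium libraries lay above all negative and low ones. The log2 fold change was 1.23 ± 0.19 (SE), a fitted difference of 2.35-fold over both pools (edgeR, adjusted p = 4.1e-05). Cldn5 had 4277 and 4609 CPM in the negative, 5851 and 5730 in the low, 7414 and 7775 in the medium and 7719 and 7714 in the high bin. Its medium and high libraries overlapped, and both stood above the negative ones, by a log2 fold change of 0.99 ± 0.21 (SE) for the high bin (edgeR, adjusted p = 0.0016).

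Jam2 had 297 and 291 CPM in the negative and 416 and 397 in the high bin, a log2 fold change of 0.66 ± 0.17 (SE) with an adjusted p of 0.013 in edgeR. Lsr had 238 and 280 CPM in the negative and 376 and 368 in the high bin, 0.73 ± 0.21 (SE) with an adjusted p of 0.025 in edgeR. For both genes the negative and high libraries did not overlap. Tjp1 had 730 and 643 against 935 and 873 CPM, which missed the threshold (log2 fold change 0.59, edgeR, adjusted p = 0.092) and passed it with the pool as a block (adjusted p = 8.0e-04). Esam (0.33, adjusted p = 0.43), Marveld2 (1.14, adjusted p = 0.31) and F11r (-0.21, adjusted p = 0.60) were not called by edgeR. The change of Marveld2 rests on 5 UMIs in the negative bin, at 6.67 ± 9.44 CPM (SD, n = 2). F11r had 268 and 275 CPM in the negative against 207 and 202 in the high bin. The median change was 0.69 over the 8 members and 0.14 over all genes tested. Without replicate 1 or 2 of ATV-TfR the calls of Cldn5 (0.97 and 0.96, edgeR, adjusted p = 0.16 and 0.14), Jam2 (0.68 and 0.59, adjusted p = 0.32 and 0.42) and Lsr (0.62 and 0.77, adjusted p = 0.50 and 0.36) were lost. Ocln missed the threshold without replicate 1 (1.08, adjusted p = 0.063). Without replicate 2 Ocln stayed called (1.34, adjusted p = 0.015).

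**Figure D3:**
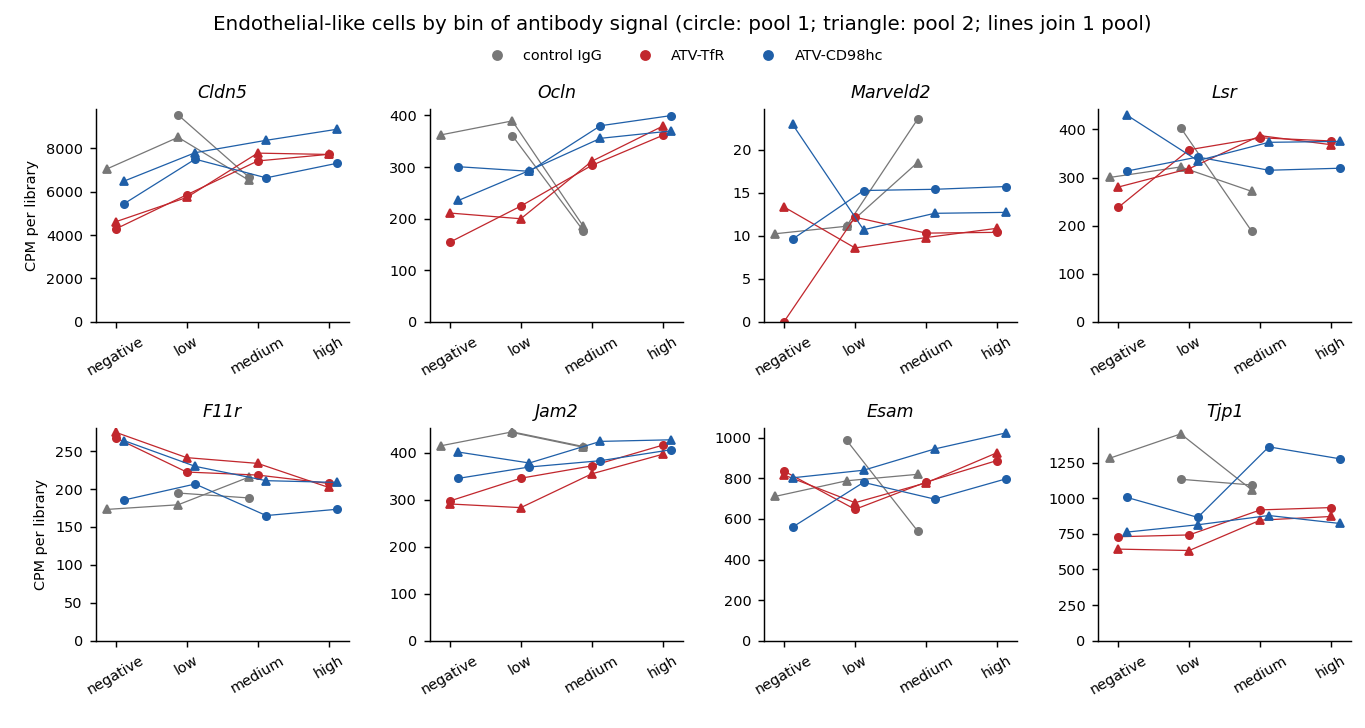
CPM per library of 8 members in endothelial-like cells over the 4 bins of antibody signal, with circles for pool 1, triangles for pool 2 and lines joining the libraries of a pool. Ocln rises in ATV-TfR from 154 and 211 CPM in the negative bin to 362 and 379 in the high bin, while F11r does not rise.

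The make-up of the endothelial-like cells moved with the bins. Fenestrated-like cells were 37.3% (47 of 126) and 32.9% (28 of 85) of the endothelial-like cells in the ATV-TfR negative libraries, and 0 of 16608 and 0 of 15364 in the high ones. Capillary-like cells were 8.73% and 10.6% in the negative and 63.6% and 63.4% in the high libraries, and arterial-like cells 44.4% and 44.7% against 6.06% and 5.43%. The 12 endothelial markers together summed to 18530 and 19210 CPM in the negative and 24060 and 23670 in the high bin. In arterial-like cells alone no member was called by edgeR. Ocln had a log2 fold change of 0.55 (edgeR, adjusted p = 0.063), and of 0.51 and 0.61 with 2 other random seeds of the clustering (adjusted p = 0.14 and 0.081). Cldn5 (0.17, adjusted p = 0.67), Jam2 (-0.021, adjusted p = 0.97) and Lsr (0.045, adjusted p = 0.94) lay closer to 0 in the edgeR fit. Capillary-like cells alone gave no value for this contrast, since too few lay in the negative libraries. Scaled to the sum of the endothelial markers, Ocln stayed higher (0.70, edgeR, adjusted p = 0.0083), Cldn5 (0.46, adjusted p = 0.15), Jam2 (0.13, adjusted p = 0.69) and Lsr (0.19, adjusted p = 0.60) lost their calls, and F11r was lower in the high bin (-0.74, adjusted p = 0.014). That scaling moved the median of all genes from 0.14 to -0.40 and the higher calls from 32.4% to 5.76% of all calls. Size factors by DESeq2's method (RLE) in the edgeR fit, with a median of -0.05 and 18.6% higher calls, ended the calls of Jam2 (adjusted p = 0.087) and Lsr (adjusted p = 0.12).

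In ATV-CD98hc the same contrast called 1 of 8 members, Ocln, against 1.66% of all genes higher and 6.36% in either direction. Ocln had 301 and 235 CPM in the negative, 292 and 293 in the low, 380 and 356 in the medium and 400 and 370 in the high bin. The medium and high libraries lay above all negative and low ones, and the log2 fold change was 0.67 ± 0.19 (SE; edgeR, adjusted p = 0.032). Cldn5 had 5443 and 6486 CPM in the negative and 7309 and 8877 in the high bin, without overlap, and missed the threshold (0.62, edgeR, adjusted p = 0.076). Esam had 560 and 803 against 797 and 1024 CPM, which overlapped between pools (0.62, edgeR, adjusted p = 0.15). With the pool as a block both passed in edgeR, Cldn5 with an adjusted p of 8.0e-04 and Esam with 0.0031. Without the clusters led by astrocyte or pericyte genes Cldn5 passed as well (0.69, edgeR, adjusted p = 0.043). Tjp1 (0.40), Jam2 (0.34), Marveld2 (0.14), Lsr (0.10) and F11r (-0.02) were not called. The call of Ocln rested on the setting: without the hemoglobin-rich negative library it was 0.89 (edgeR, adjusted p = 0.074), and in arterial-like cells alone 0.37 (adjusted p = 0.42). In capillary-like cells alone it was 0.17 (edgeR, adjusted p = 0.98), with 1 negative library of 20 cells that is assumed to vary like the other groups. Scaled to the endothelial markers it was 0.20 (edgeR, adjusted p = 0.63), with 5.01% of calls higher in place of 26%. Without replicate 1 or 2 of ATV-CD98hc it was 0.89 and 0.55 (edgeR, adjusted p = 0.092 and 0.28), without replicate 1 or 2 of ATV-TfR its adjusted p was 0.10 and 0.082, and with RLE factors 0.15. Fenestrated-like cells were 9.64% and 13.8% of the negative and 0.0669% and 0.0430% of the high libraries.

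**Figure D4:**
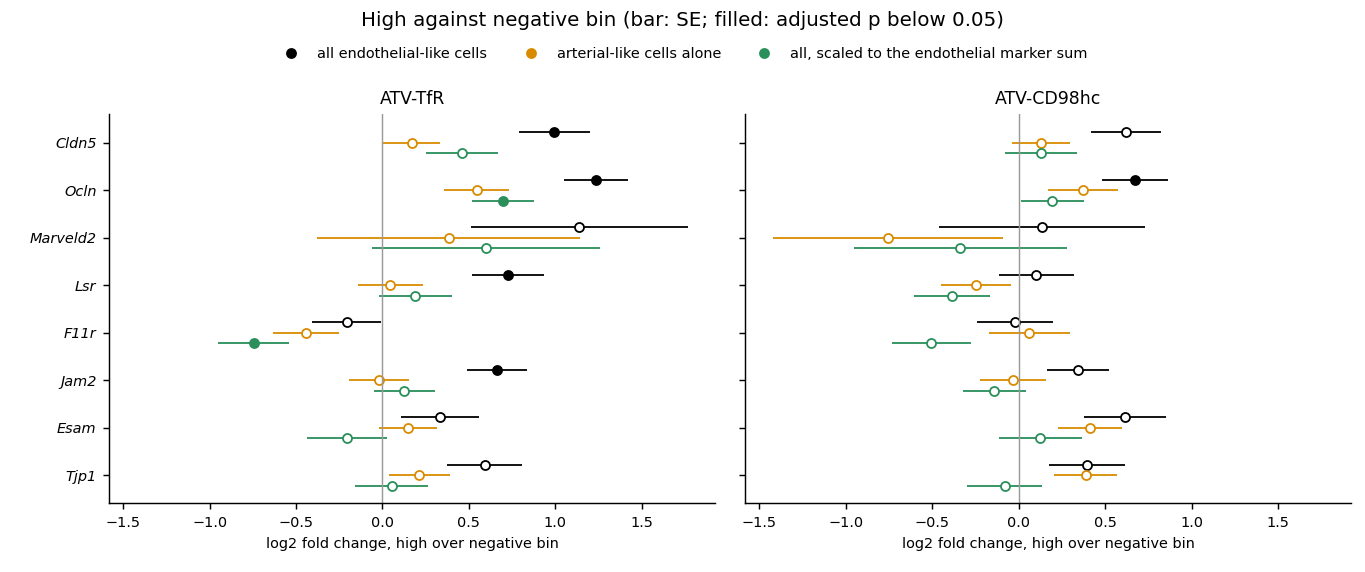
Log2 fold change of 8 members from the negative to the high bin in endothelial-like cells of ATV-TfR (left) and ATV-CD98hc (right), with SE as bars and filled points for an adjusted p below 0.05 in edgeR. Black is all cells, orange arterial-like cells alone and green all cells scaled to the endothelial markers; in ATV-TfR Ocln lies above 0 in all 3 (1.23, 0.55 and 0.70) and is open in arterial-like cells.

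The direct test of the difference between the vehicles (the high over negative change in ATV-TfR minus that in ATV-CD98hc) called 0 of 8 members in edgeR, with 0.127% of all genes called. The lowest adjusted p of a member was 0.79, and 2 members were below an unadjusted p of 0.05, Ocln (0.56) and Lsr (0.62). DESeq2 called 0 of 8. Between the high bins of the vehicles 0 of 8 members were called by edgeR (0.197% of genes), with log2 differences of -0.39 to 0.12, 0 members below an unadjusted p of 0.05 and 0 calls by DESeq2. Between the high and medium bins of ATV-TfR it called 0 of 8 (8.76% of genes), and Ocln had a log2 difference of 0.41 (edgeR, adjusted p = 0.18) that passed with the pool as a block (adjusted p = 0.012) and in DESeq2 (adjusted p = 0.017). It was the only member below an unadjusted p of 0.05. In ATV-CD98hc 0 of 8 were called between these bins (2.67% of genes called by edgeR), with 0 below an unadjusted p of 0.05 and 0 by DESeq2.

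Control IgG gave the background of the sort. Of its endothelial-like cells nearly all lay in the negative and low bins. Ocln had 362 CPM in the single negative library and 361 and 389 in the low ones, and Cldn5 had 7049 against 9537 and 8504 CPM. None of 8 members was called between these bins by edgeR, with 4.43% of all genes called, 0 members below an unadjusted p of 0.05 and 0 members called by DESeq2. With 1 negative library this test takes its spread from the other groups. The medium libraries of control IgG held 27 and 42 endothelial-like cells, with Ocln at 176 and 185 CPM and Cldn5 at 6656 and 6517 CPM, both below the low libraries of control IgG. The negative library of control IgG thus lay within the range of Ocln in the high bins of both vehicles (362 to 400 CPM) and above all of their negative libraries. Its make-up differed from theirs. Capillary-like cells were 57.2% of its endothelial-like cells, against 8.73% and 10.6% in the ATV-TfR and 24.1% and 27.6% in the ATV-CD98hc negative libraries. Fenestrated-like cells were 0.877%, against 37.3% and 32.9%, and 9.64% and 13.8%. The part of make-up in this difference was not tested.

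Over whole pools, with all bins summed, 0 of 9 members were called between treatments in endothelial-like cells, none of them below an unadjusted p of 0.05. The 3 contrasts of pools called 0% of 16678 genes in edgeR. At an unadjusted p below 0.05 they held 1170 genes for ATV-TfR against control IgG, 703 for ATV-CD98hc against control IgG and 351 between the vehicles, and DESeq2 called 172, 79 and 11 genes, with no member among them. Both contrasts with control IgG share its pools. The summed pools also held unlike bins. Endothelial-like cells of the high bin numbered 16608 and 15364 in ATV-TfR, 8970 and 11629 in ATV-CD98hc, and 10 and 15 in control IgG. Control IgG pool 1 had no negative library. The part of bin make-up in these contrasts was not tested. The members ranged from -0.80 (Cgn, on 34 UMIs) to 0.23 in ATV-TfR against control IgG, from -0.84 to 0.37 in ATV-CD98hc against control IgG, and from -0.36 to 0.17 between the vehicles. On simulated counts for ATV-TfR against control IgG, edgeR recovered 62.6% of genes changed 2-fold and 86% changed 4-fold (16687 genes). The simulation set the spread by a fixed rule, gave all groups the same mean profile and changed genes drawn at random. These shares are therefore not the power for the members in the real pools. The missing calls do not show that the levels were alike.

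Of the 59 other junction genes 39 were tested in endothelial-like cells. Between the high and negative bins ATV-TfR had 5 of them (12.8%) past the threshold, against 10.1% of all genes, and ATV-CD98hc had 4 (10.3%), against 6.36%. In ATV-TfR the lowest adjusted p of the 6 claudins tested was 0.051 in edgeR between the high and negative bins. Of 6 membrane partners 1 was higher, Igsf5 (1.72, edgeR, adjusted p = 0.016), and 2 were lower, Jam3 (-4.19, adjusted p = 1.9e-10) and Marveld1 (-2.06), against 6.85% of all genes lower. Of 18 scaffold and polarity genes Magi2 was lower (-2.94 on the log2 scale), and of 9 adherens genes Ctnnb1, the cadherin partner beta-catenin, was higher (0.91, edgeR, adjusted p = 8.1e-04). In ATV-CD98hc the called genes were Jam3 (-2.85), Marveld1 (-1.99) and Magi2 (-1.81), all lower against 4.71% of all genes, and Ctnnb1 (0.79). Of the lower genes, Jam3 and Magi2 had their highest class level in oligodendrocyte-like cells and Marveld1 in smooth muscle-like cells. Between the high and medium bins 6 of the 39 (15.4%) were called in ATV-TfR, against 8.76% of all genes, and 2 (5.13%) in ATV-CD98hc, against 2.67%. Cldn10 and Cldn11, highest in astrocyte-like and oligodendrocyte-like cells, were lower in the high bin of ATV-TfR (-4.12 and -3.40) and of ATV-CD98hc (-2.38 and -2.78) in edgeR. The other called genes of ATV-TfR were Magi2 (-2.39, edgeR, adjusted p = 2.8e-08), Plekha7 (-1.80) and Marveld1 (-0.85), which were lower, and Ctnnb1 (0.63), which was higher. Astrocyte and oligodendrocyte markers differed between these bins too: from the medium to the high bin, astrocyte markers went from 1196 to 490 CPM in ATV-TfR and from 546 to 419 in ATV-CD98hc, and oligodendrocyte markers from 55.4 to 11.3 and from 25.6 to 6.13 CPM. In the negative bins oligodendrocyte markers stood at 226 and 217 CPM. The part of these cells' RNA in these values was not tested. The adherens genes Cdh5 (529 CPM), Pecam1 (790 CPM) and Ctnnb1 (796 CPM) and the scaffold Cgnl1 (386 CPM) had their highest class level in endothelial-like cells.

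The choroid plexus epithelium carries the barrier between blood and cerebrospinal fluid. When ATV-TfR was set against control IgG in choroid plexus epithelial-like cells, 3 of 9 members were higher and 1 was lower in edgeR, against 5.42% of 13084 genes higher, 4.52% lower and 9.94% in either direction. The lower one was Cgn, the member with its highest level in these cells: the ATV-TfR pools stood at 18.1 and 15.5 CPM and the control pools at 25.4 and 28.0 CPM, without overlap. The log2 fold change was -0.64 ± 0.15 (SE; edgeR, adjusted p = 0.023). It was -0.67 in the low bin alone (edgeR, adjusted p = 0.086) and -0.47 with bins weighted equally (adjusted p = 0.074). DESeq2 gave -0.62 (adjusted p = 0.16). Without 1 of the 4 pools compared Cgn ran from -0.73 to -0.54, and the call held in edgeR only without control IgG replicate 1 (adjusted p = 0.039). It was lost without ATV-TfR replicate 1 or 2 (edgeR, adjusted p = 0.11 and 0.18) and without control IgG replicate 2 (adjusted p = 0.093). In ATV-CD98hc Cgn stood at 19.0 and 22.9 CPM, below both control pools, with a change of -0.39 that missed the threshold (edgeR, adjusted p = 0.16).

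Jam2 in these cells had 18.9 and 16.3 CPM in ATV-TfR, 21.0 and 32.2 in ATV-CD98hc and 4.72 and 7.45 in control IgG, and both vehicles lay above the controls. The log2 fold changes were 1.54 ± 0.26 (SE) for ATV-TfR (edgeR, adjusted p = 0.0037) and 2.05 ± 0.25 (SE) for ATV-CD98hc (edgeR, adjusted p = 6.5e-04). Tjp1 had 60.9 and 47.2 CPM in ATV-TfR, 69.0 and 94.3 in ATV-CD98hc and 31.1 and 40.2 in control IgG, again without overlap. Its log2 fold changes were 0.62 ± 0.18 (edgeR, adjusted p = 0.046) and 1.15 ± 0.17 (adjusted p = 0.0017). In the low bin alone Jam2 (1.61 and 1.75) and Tjp1 (0.81 and 1.25) remained called in both contrasts by edgeR, and F11r (-0.65, adjusted p = 0.030) and Lsr (-0.86, adjusted p = 0.034) were called lower in ATV-TfR. Astrocyte markers stood at 1217 and 1200 CPM in ATV-TfR, 933 and 1131 in ATV-CD98hc and 43.6 and 297 in control IgG pools of these cells. Astrocyte-like cells themselves held Jam2 at 160 and Tjp1 at 455 CPM, and Cldn10, highest in astrocyte-like cells, was higher by 2.84 and 2.41. The part of astrocyte RNA in these results was not tested. Without ATV-TfR replicate 1, Jam2 (1.45, edgeR, adjusted p = 0.057), Tjp1 (0.45, adjusted p = 0.38) and Cldn5 (1.56, adjusted p = 0.26) lost their calls in ATV-TfR. Tjp1 and Cldn5 also lost them without ATV-TfR replicate 2 (adjusted p = 0.088 and 0.097) or control IgG replicate 1 (edgeR, adjusted p = 0.20 and 0.081).

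Cldn5 and Esam moved with the endothelial markers. Cldn5 had 98.3 and 66.2 CPM in ATV-TfR, 188 and 522 in ATV-CD98hc and 10.9 and 34.9 in control IgG. The endothelial marker sum in the same cells was 412 and 261, 783 and 1539, and 162 and 228 CPM. The log2 fold change of Cldn5 was 1.84 ± 0.49 (SE; edgeR, adjusted p = 0.034) in ATV-TfR and 3.88 ± 0.49 (adjusted p = 7.2e-04) in ATV-CD98hc. Esam was called in ATV-CD98hc alone (3.70, edgeR, adjusted p = 0.0012). In the low bin alone Cldn5 was at -1.52 (edgeR, adjusted p = 0.094) and 1.06 (adjusted p = 0.17), and Esam at -1.78 and -0.06, none of them called. DESeq2 did not call Cldn5 in ATV-TfR (adjusted p = 0.21). With bins weighted equally Cldn5 was at 6.11 and 8.15 (edgeR, adjusted p = 4.9e-06 and 3.7e-11) and Esam at 4.58 and 6.57 (adjusted p = 0.010 and 4.0e-07). The control IgG high bins held no Cldn5 or Esam UMI, so that the size of both changes in that setting depends on the prior count. With doublets kept Cldn5 was at -0.38, Jam2 at 0.75 and Tjp1 at 0.22 in ATV-TfR, and all of them lost their calls (edgeR, adjusted p = 0.46, 0.074 and 0.50). Of the 9 members 4 were thus higher in ATV-CD98hc against control IgG (Cldn5, Esam, Jam2 and Tjp1), against 7.93% of genes higher and 9.06% in either direction, and none was lower (1.12% of genes). Between the vehicles 0 of 9 members were called by edgeR (0.902% of genes). Cldn5 (-2.03) and Esam (-1.99) each had an adjusted p of 0.058, DESeq2 called 0, and 7 of 9 members were below an unadjusted p of 0.05.

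Other junction genes of the choroid plexus were lower in ATV-TfR beside Cgn. Of 42 tested, 10 were lower (23.8%) and 1 was higher (2.38%), against 4.52% of all genes lower and 5.42% higher in edgeR. Of 20 scaffold and polarity genes 5 were lower and 0 higher, of 7 claudins 2 were lower and 1 higher, of 6 membrane partners 2 were lower, and of 9 adherens genes 1 was lower. The count varied with the setting: 1 of the 10 was called lower without ATV-TfR replicate 1 (0.363% of all genes lower), 2 without ATV-TfR replicate 2 (0.657%), 4 without control IgG replicate 1 (1.61%), 4 with mitochondrial UMIs up to 5% (1.41%) and 6 with DESeq2 (2.16%). In other settings more genes were lower: 11 of 44 without control IgG replicate 2 (4.71% of all genes lower), 11 of 43 in the low bin alone (7.45%) and 13 of 43 with the bins weighted equally (8.73%), of which 8, 8 and 9 were among the 10. Cgnl1, the paralog of cingulin, had 109 and 109 CPM in ATV-TfR and 276 and 212 in control IgG, a log2 fold change of -1.13 (edgeR, adjusted p = 0.0022). In the low bin alone it was at -2.10 (edgeR, adjusted p = 1.9e-10). Cldn2, the channel-forming claudin of this epithelium, had 87.5 and 84.3 against 149 and 131 CPM (-0.67, edgeR, adjusted p = 0.0048). Patj (-0.90) and Mpdz (-0.72), both multi-PDZ scaffolds of the apical junction, and Plekha7 (-0.78) of the adherens junction were lower too. In the low bin alone Plekha7 was not called (-0.58, edgeR, adjusted p = 0.12). The values of the vehicle pools and the control pools did not overlap for Cgnl1, Cldn2, Patj or Mpdz. Without ATV-TfR replicate 1 Patj stayed called (-0.97, edgeR, adjusted p = 0.032), while Cgnl1 (-1.11), Mpdz (-0.73), Cldn2 (-0.68) and Plekha7 (-0.75) had adjusted p values of 0.054, 0.058, 0.088 and 0.099. In ATV-CD98hc 4 of the 42 were higher (9.52%) and 2 lower (4.76%), against 7.93% and 1.12% of all genes. The higher ones were Cldn10 (2.41), Jam3 (0.89) and the endothelial Cdh5 (3.46) and Pecam1 (3.88). Patj (-0.59, edgeR, adjusted p = 0.013) and Mpdz (-0.51, adjusted p = 0.016) were lower, which DESeq2 did not call (adjusted p = 0.079 and 0.094). Without ATV-CD98hc replicate 2 (edgeR, adjusted p = 0.059 and 0.082) or control IgG replicate 1 (adjusted p = 0.084 and 0.067) both lost their calls. In the low bin alone, where 5.22% of all genes were lower and 8.95% higher, Cgnl1 (-1.85, edgeR, adjusted p = 2.1e-09), Cldn1 (-1.38, adjusted p = 5.1e-06) and Cldn2 (-0.82, adjusted p = 1.5e-04) were called lower in ATV-CD98hc as well, and Cldn10 (5.61, adjusted p = 7.0e-16) and Jam3 (1.57, adjusted p = 0.0037) higher. In the sums of these cells the direction of Cgn and of these scaffolds was thus opposite to that of Jam2 and Tjp1, and Cgn was not called in ATV-CD98hc. Astrocyte markers were higher in the pools of both vehicles than in control IgG. The part of astrocyte RNA in Jam2 and Tjp1 was not tested, so opposite changes within the epithelium are not shown.

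Across the bins, choroid plexus epithelial-like cells of the high bin held more Ocln and F11r than those of the low bin in 6 of 6 pools. Ocln had 23 and 30.3 CPM in the low and 80.3 and 60.9 in the high bin of ATV-TfR, and 21.9 and 29.7 against 77.8 and 75.2 in ATV-CD98hc. In control IgG it had 33.5 and 36.2 against 45.9 and 58.6 CPM. The ratio ran from 1.37 to 3.56 with a median of 2.27. F11r had 30.2 and 37.8 against 89.5 and 87.2 CPM in ATV-TfR, and the ratio over the 6 pools ran from 1.24 to 2.96 with a median of 2.01. Lsr and Cgn were higher in 5 of 6 pools (median ratios 2.50 and 1.70), and Tjp1 in 4 of 6. These are values with no test, on 28 to 118 cells per high library. Depth and endothelial RNA moved with them in the vehicles: ATV-TfR cells held 8609 and 9544 UMIs each in the low and 18910 and 19397 in the high bin, with endothelial markers at 1999 and 955 CPM in the high bin. In control IgG the high bin held 10898 and 9654 UMIs per cell against 9032 and 7690, with endothelial markers at 105 and 135 CPM and no Cldn5 UMI. The part of depth and of endothelial RNA in these ratios was not tested.

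**Figure D5:**
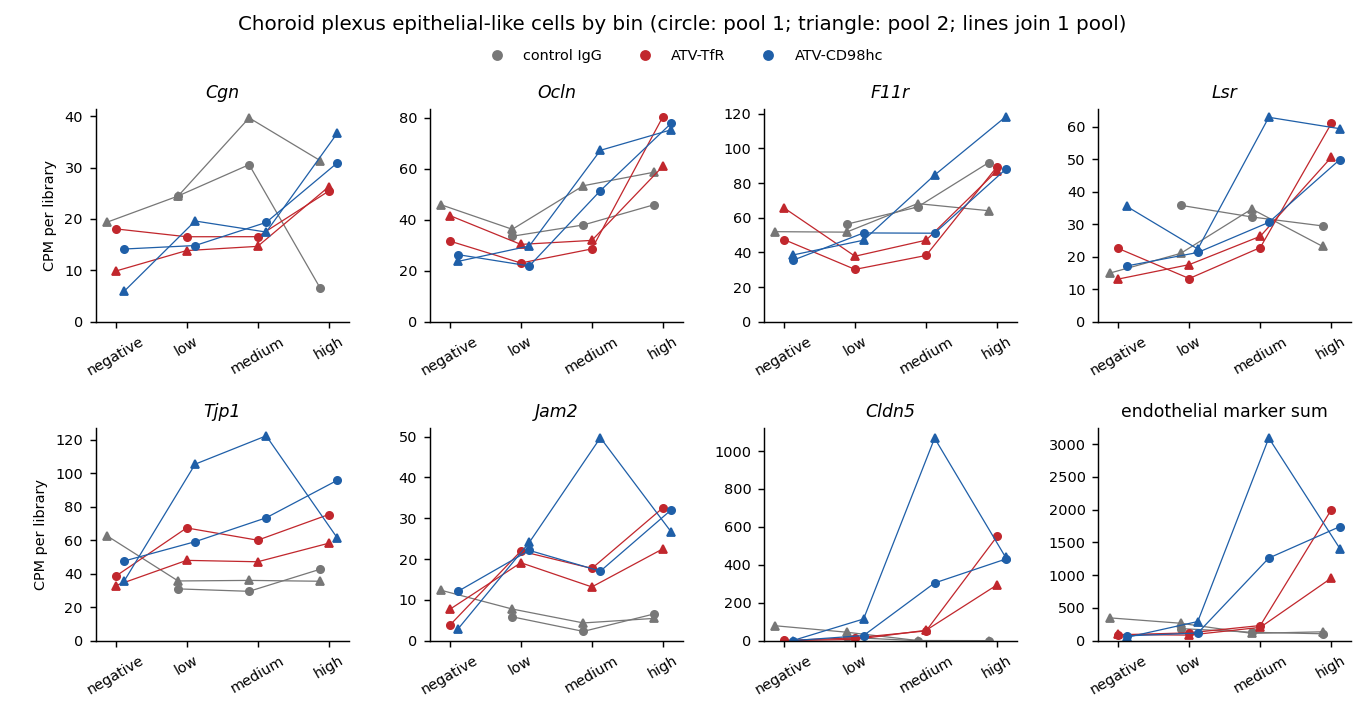
CPM per library in choroid plexus epithelial-like cells over the 4 bins, for 7 members and the sum of 12 endothelial markers; circles are pool 1, triangles pool 2, and lines join the libraries of a pool. Ocln and F11r are higher in the high than in the low bin of all 6 pools. In the vehicles Cldn5 and the mean endothelial marker sum are both higher in the high than in the low bin, and the control IgG high bins hold no Cldn5 UMI.

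In border macrophage-like cells F11r was higher in the high than in the low bin of 6 of 6 pools (median ratio 1.76). In ATV-CD98hc Cldn5 (4.64 and 5.11 times) and Esam (2.60 and 5.64 times) were higher in the high bin of these cells too. In control IgG, where F11r was at 1.32 and 1.51 times, the high bin held no Cldn5 or Esam UMI. The part of endothelial RNA in the F11r values was not tested. In endothelial-like cells the reverse held for F11r, which was lower in the high than in the low bin of all 4 vehicle pools (median ratio 0.873), while Ocln, Jam2, Esam and Tjp1 were higher in 4 of 4. Ependymal-like cells, the lining of the ventricles, held Ocln at 40.6 to 138.6 CPM per library, and Cldn5 at 260 ± 415 CPM (SD, n = 5). The spread of Cldn5 there came from 1 library, the medium bin of ATV-CD98hc pool 1, with 2255 CPM in 56 cells.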

How the data were processed

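The deposited values are whole-number UMI counts, 1 for each gene in each barcode and not normalized, made with Cell Ranger 7.1.0 and mm10/GRCm38 per the submitters' processing notes, which also name Seurat 4 and 5. The other deposited files (unit: other) list the barcodes, genes and the library of each barcode. How cells were called is not stated.

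Barcodes with 500 genes or more, 800 UMIs or more and no more than 10% mitochondrial UMIs were kept (249715). Of these, 15691 were removed as doublets with Scrublet (0.69% to 12.18% per library). In 8 libraries the top of the score from percentile 94 replaced the automatic threshold. These 8 include all high libraries of both vehicles and no negative library, so the doublet rule differed between these bins. Cells were clustered with scanpy 1.11.5 and leidenalg 0.10.2 (2000 variable genes without the junction genes, 50 components, 15 neighbours, resolution 2). A class needed 50% of its list's markers. Unnamed clusters hold 5439 cells. The members and lists were chosen with earlier results of these data known.

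UMI counts were summed per class and library (bins) or pool (treatments) with at least 20 cells and tested with edgeR 4.0.16 (quasi-likelihood test, TMM, its filter on low counts, Benjamini-Hochberg over all genes tested, R 4.3.3), 13 comparisons in all, and a gene is called at an adjusted p below 0.05. The SE of an edgeR log2 fold change is its size divided by the square root of the test's F statistic. It thus carries the spread shared over all groups. DESeq2 1.42.0, other scalings, filters, cell sets and omitted pools were alternatives. Intervals and the floor of 3 counts cover counting error only. On simulated counts for ATV-TfR high against negative, edgeR recovered 29.7% of genes changed 2-fold and 68.1% changed 4-fold (14666 genes). In choroid plexus cells, ATV-TfR against control IgG, it recovered 68% and 100% (13074 genes). All simulations set the spread by a fixed rule, with independent counts, and did not estimate it from these data.

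The bins of a pool come from the same mice, per the labels, so pool numbers pair the bins. The main tests between bins did not use this pairing. The fit with the pool as a block was an alternative. Deviations of bins of 1 pool correlated at 0.081 to 0.972 over 13 pairs of bins (7643 genes). Pools of different treatments share only a number.

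All 9 members were looked up in every comparison. Cgn was not tested in the bins, and some comparisons give the members as a count or a range only. Of the 59 other junction genes (22 claudins, 8 membrane partners, 20 scaffold and polarity, 9 adherens), those called, at most 6 with the smallest p per comparison, or with at least 100 CPM in a class could be named. Gene positions are from GENCODE vM21.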

Additional observations from a re-analysis of the deposited data

Results flagged for a closer look

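Pools were compared in segments and in classes where the member reached 10% of its highest class level. In 11 of 114 such groups of 4 to 6 pools, the highest or lowest pool stood apart from the others by more than Dixon's 95% limit. Chance gives this in about 1 of 20 groups that are independent and normally spread. Groups that share a pool or hold few UMIs do not meet this, so the 11 are no measure of an excess. In neuron-like cells 5 of these were ATV-CD98hc pool 2, with Cldn5 at 2245, Ocln at 117.3, Tjp1 at 595.4, Esam at 267.3 and Jam2 at 171.7 CPM, each above the other 3 pools. In ependymal-like cells Tjp1 stood apart in ATV-CD98hc pool 1 at 382.5 CPM, against 93.0 to 135 CPM in the other 4 pools. In pericyte-like cells Jam2 stood apart in control IgG pool 1 at 347 CPM and Marveld2 in ATV-CD98hc pool 1 at 7.838 CPM. In B-like cells Esam stood apart in ATV-CD98hc pool 2 at 229.9 CPM, and in T or NK-like cells Marveld2 had 0 CPM in control IgG pool 2. In fenestrated-like cells Marveld2 stood apart in ATV-CD98hc pool 1 at 8.364 CPM, with no UMI in the other 4 pools.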

How the results depend on the processing

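Genes called per comparison are given for each alternative that moved them by over 1.5 times, with the range without 1 pool or replicate beside them, and the cause was not tested except where fewer cells or samples enter. In choroid plexus epithelial-like cells, ATV-CD98hc against control IgG (1185 genes) gave 726 with DESeq2 and 828 to 1348 without 1 pool. ATV-TfR against control IgG (1301) gave 752 with DESeq2, 721 with mitochondrial UMIs up to 5%, 2234 with bins weighted equally and 306 to 1540 without 1 pool. ATV-TfR against ATV-CD98hc (118) gave 400 with doublets kept, 63 in the low bin, 772 with bins weighted equally, 16 with mitochondrial UMIs up to 5%, 645 without a filter and 0 to 477 without 1 pool. With a replicate block, whose numbers pair nothing between treatments, it gave 59. In endothelial-like cells, ATV-TfR high against negative (1595; 517 higher) gave 958 in arterial-like cells (840 and 725 with 2 other random seeds) and 563 to 2431 without 1 replicate. ATV-CD98hc high against negative (1002) gave 575 in arterial-like cells (461 and 344 with the other seeds), 69 in capillary-like cells, 1517 with cells chosen by marker UMIs, 1742 with DESeq2, 348 without the hemoglobin-rich library and 453 to 1029 without 1 replicate. The difference of these (20) gave 2, 13 with at least 50 cells, 64 with DESeq2, 36 with doublets kept, 0 without the hemoglobin-rich library, 12 with mitochondrial UMIs up to 5%, 120 without a filter, 158 with the pool as a block and 0 to 107 without 1 replicate; the 2 is from arterial-like cells. ATV-TfR high against medium (1379) gave 655 in arterial-like and 278 in capillary-like cells, 2510 with the block and 531 to 2325 without 1 replicate. ATV-CD98hc high against medium (421) gave 116 in arterial-like and 211 in capillary-like cells, 964 by marker UMIs, 1030 with the block and 306 to 419 without 1 replicate. The high bins of the vehicles (31) gave 19 with at least 50 cells, 17 in arterial-like and 4 in capillary-like cells, 263 by marker UMIs, 48 with DESeq2, 153 without a filter, 62 with the block and 1 to 1581 without 1 replicate. Control IgG low against negative (697) gave 11 in arterial-like and 196 in capillary-like cells and 484 to 1116 without 1 replicate. Pools of endothelial-like cells (0 each) gave 172 with DESeq2, 2 with the replicate block and 0 to 122 without 1 pool for ATV-TfR against control IgG. They gave 79 and 0 to 93 for ATV-CD98hc against control IgG, and 11 and 0 to 1 between the vehicles.

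Among the members' own values that changed sign were Esam in ATV-TfR (-0.20), Jam2 (-0.14) and Tjp1 (-0.082) in ATV-CD98hc, high against negative, scaled to the endothelial markers. In arterial-like cells Jam2 turned in ATV-TfR (-0.021, and -0.20 with random seed 2) and in ATV-CD98hc (-0.031, and -0.062 and -0.071 with seeds 1 and 2), and Tjp1 in ATV-TfR with seed 2 (-0.0020). Tjp1 in ATV-CD98hc turned in capillary-like cells (-0.14). In choroid plexus cells against control IgG, Cldn5 (-0.38 and -1.52) and Esam (-0.022 and -1.78) turned in ATV-TfR with doublets kept and in the low bin. In ATV-CD98hc Esam (-0.063), Ocln (-0.48) and F11r (-0.12) turned in the low bin, as did Lsr (-0.38). Lsr in ATV-TfR turned with bins weighted equally (0.036) and without control IgG replicate 1 (0.11). In the bins, Lsr, F11r and Marveld2 lay near 0 in ATV-CD98hc and turned under several alternatives, and Marveld2 in ATV-TfR turned in arterial-like cells with seed 2 (-0.27) and without ATV-TfR replicate 1 (-0.070). In choroid plexus cells of ATV-CD98hc against control IgG, F11r also turned without ATV-CD98hc replicate 2, with -0.068 to 0.36 without 1 pool. In the same cells Ocln in ATV-TfR against control IgG turned without control IgG replicate 2, with -0.27 to 0.064 without 1 pool. In control IgG pools alone Cgn stood at 26.7 CPM in choroid plexus cells and Jam2 at 436 CPM in endothelial-like cells. The number of members highest in endothelial-like cells (7) was the same without any 1 pool. That of members under 50% in fenestrated-like cells was 5, with Marveld2 at its floor counted and Cgn left out. It was 4 with high and medium bins alone, where only ATV-CD98hc pools had enough cells. With 2 other random seeds, added after the data were seen, it was 5. The block changed no call of a member in the bins beside those given in the report. Between pools, where numbers pair nothing, Tjp1 in choroid plexus cells of ATV-TfR against control IgG lost its call (edgeR, adjusted p = 0.065). Of the single values computed under all alternatives, which leave out the fold changes of Marveld2, Lsr in choroid plexus cells and Lsr and F11r in the ATV-CD98hc bins, 440 kept direction and call, 53 lost and 22 gained a call, 19 changed sign and 2 levels moved by more than their SD.

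Capillary-like cells alone gave no value for ATV-TfR high against negative or for the difference between the vehicles, and control IgG low against negative none without replicate 2. Arterial-like cells, the hemoglobin-rich library and the weighting or choice of choroid plexus bins were alternatives chosen after seeing the data. Negative libraries with 58 to 126 endothelial-like cells, and control IgG medium bins with 27 and 42 such cells, limit what could be detected, and treatment cannot be told apart from genotype.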

Other observations

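A cluster of 431 cells in 6 pools, which no marker list named and whose leading genes were Igfbp6, Prg4 and Slc47a1, held members of the junction outside the classes above. Lsr stood there at 139 ± 16 CPM (SD, n = 6), 119 to 163 CPM over the pools, and Ildr2, a relative of Lsr among the angulins, at 1001 ± 166 CPM (SD, n = 6). Ocln stood at 45.7 ± 13 CPM (SD, n = 6) and Tjp1 at 327 CPM, beside Cldn11 at 285 CPM and Cxadr, a junctional adhesion receptor, at 202 CPM. Per endothelial marker UMI, Lsr was at 5.96, Tjp1 at 4.74 and Ocln at 1.89 times the endothelial-like ratio, and Cldn5 at 0.81. The endothelial markers summed to 449 to 1927 CPM in these pools, and the ratios, taken over the sums of all pools, hide a spread. At the lowest marker sum, in control IgG pool 1, Cldn5 stood at 3.40 CPM. At the highest, in ATV-CD98hc pool 2, it stood at 593 CPM. The cluster was chosen after its values were seen, and the values are a description with no test.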
